A study of Rattus norvegicus with 12 samples.

Results

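The genes described here make fatty acids in the liver, lengthen them and put double bonds into them. They are Fasn, Acaca, Acacb, Scd1, Scd, Elovl5, Elovl6, Fads1, Fads2 and Thrsp, 10 genes chosen by name. A row of the deposited table belonged to a gene when its gene name equalled the symbol, whatever the case of the letters, and of several rows the one with the highest mean level over all livers was taken as the gene's main row. By this rule 9 of the 10 genes had 13 rows, of 34391 rows and 24355 gene names in all. Fasn, the gene of fatty acid synthase, matched no row by name and was not analysed here.

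The livers came from 12 female rats of the inbred alcohol-preferring line iP10a, bred for drinking alcohol by choice, with 1 poly(A) RNA library per animal. The 6 EtOH animals could drink freely from bottles of 10%, 20% and 30% ethanol and from water for 23 weeks, and the 6 control animals had water only. Both groups ate freely, so the dose of ethanol was the animal's own choice and food intake was not set. The animals were 38 weeks old at collection, apart from EtOH animal 6 at 39 weeks. Levels are RPKM, reads scaled to transcript length and to the mapped reads of the library, and can therefore be compared between genes. Reads recovered from the RPKM values, which are lower bounds, numbered between 2610238 and 4318141 in a control liver. In an EtOH liver they numbered between 3945593 and 6030028. The defining markers of hepatocytes, 5 of which were matched, were abundant in every liver, with a summed RPKM from 81180 to 108000 in the control livers and from 88620 to 114200 in the EtOH livers.

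Fatty acid synthesis starts from acetyl-CoA that is exported from mitochondria as citrate. The carboxylase encoded by Acaca turns it into malonyl-CoA, from which fatty acid synthase builds palmitate. The carboxylase encoded by Acacb sits at the mitochondrial membrane, where its malonyl-CoA restrains the entry of fatty acids into oxidation. Elovl6 lengthens palmitate to stearate, and Scd1, the main stearoyl-CoA desaturase of liver, puts the first double bond into both. Fads1 and Fads2 desaturate, and Elovl5 lengthens, the polyunsaturated fatty acids that come from the diet. Thrsp encodes a small protein without known enzyme activity that responds to thyroid hormone and carbohydrate and promotes fatty acid synthesis. In liver many of these genes are driven by the sterol regulatory element binding protein encoded by Srebf1 and by the carbohydrate response factor, and dietary polyunsaturated fatty acids lower their expression.

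Between EtOH and control livers none of the 9 genes passed the 5% threshold. Of all 21718 transcripts tested, 526, or 2.42%, were called at an adjusted p below 0.05 (limma on log2 of RPKM plus 0.5 after a quantile step, Benjamini-Hochberg adjustment), of which 281 were lower and 245 higher in the EtOH livers. Without normalization between livers the split was 648 lower and 126 higher, and with each liver scaled by its median it was 337 lower and 194 higher. Nor did limma voom on recovered reads or the pooled test on square-root values call any of the 9. At an unadjusted p below 0.05 stood 5 of the 9 genes, Scd1 and Elovl5 with positive and Fads1, Elovl6 and Thrsp with negative log2 fold changes, and of all transcripts 15.5% did. All 9 main rows averaged 1 RPKM or more over the livers, and of the 11086 transcripts that did so 1287 were lower and 1406 higher at that unadjusted level. None of the 9 genes was without overlap between the groups in RPKM, against 3.1% of all transcripts (2.43% with EtOH below control and 0.677% with EtOH above). The median log2 fold change of the 9 main rows was -0.18 and that of these 11086 transcripts was 0.0078. Fold changes are on the normalized log2 scale and need not equal the ratio of mean RPKM. As deposited, the median difference between EtOH and control livers over the same transcripts was -0.082 on the log2 scale. The quantile step moved single genes by unlike amounts. Fads1 went from -0.39 without normalization to -0.23, Acaca from 0.12 to 0.25, and Thrsp only from -0.54 to -0.51. In liver tissue, fewer cells of a type and less RNA per cell cannot be told apart.

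**Figure D1:**
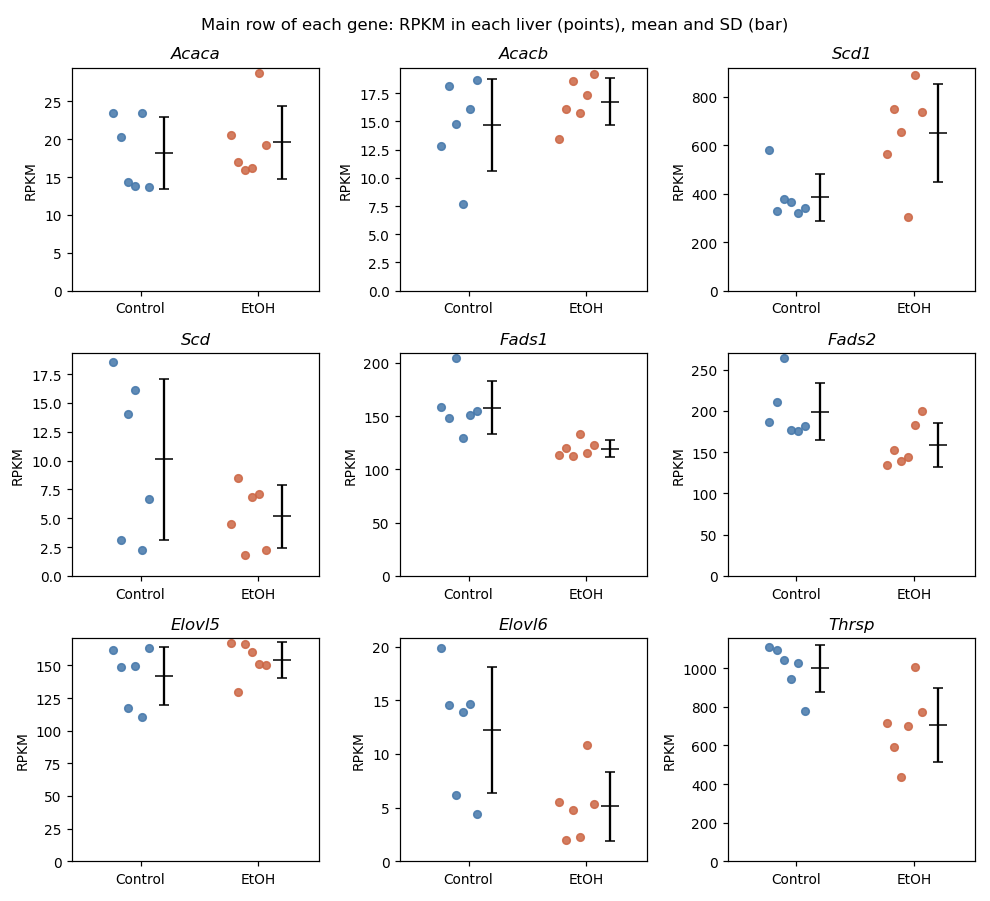
RPKM (vertical axes, from 0) of the main row of the 9 genes in each of the 6 control and 6 EtOH livers (points), with the group mean and SD beside them. The groups overlap for all 9 genes. Scd1 was above the highest control liver in 4 EtOH livers, and Fads1 and Thrsp were each below the lowest control liver in 5.

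The promoters of Scd1, Fads1 and Thrsp, the genes with the smallest p values, are shown with that of Fads2, which lies beside Fads1 in the genome. They were chosen after the values were seen. Promoters were taken from RefSeq, build GRCr8, from 250 bases before to 50 after the start of the gene, and 7 of the 10 genes had one there. Acaca, Elovl6 and Fasn had no entry. The table's Scd1 was matched to the RefSeq gene Scd and its Scd to Scd2, because RefSeq lists these as older symbols and the genes stand in the same order along chromosome 1. The build of the table is unknown, so the match could not be checked by position. Both strands were searched for the sterol response element TCACNCCAC, the CCAAT box bound by NF-Y, the E-box CACGTG bound by upstream stimulatory factors, the TATA box TATAAA and the GC box GGGCGG bound by Sp factors. Matches are in capitals, as ATTGG or CCGCCC where the match is on the opposite strand.
Scd1, chr1:253231682-253231981, minus strand: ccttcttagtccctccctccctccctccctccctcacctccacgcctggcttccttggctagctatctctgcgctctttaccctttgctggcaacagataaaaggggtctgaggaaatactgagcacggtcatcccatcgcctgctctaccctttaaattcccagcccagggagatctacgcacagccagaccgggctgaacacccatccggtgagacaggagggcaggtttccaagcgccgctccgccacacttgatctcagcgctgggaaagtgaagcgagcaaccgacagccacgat
Fads1, chr1:216252442-216252741, plus strand: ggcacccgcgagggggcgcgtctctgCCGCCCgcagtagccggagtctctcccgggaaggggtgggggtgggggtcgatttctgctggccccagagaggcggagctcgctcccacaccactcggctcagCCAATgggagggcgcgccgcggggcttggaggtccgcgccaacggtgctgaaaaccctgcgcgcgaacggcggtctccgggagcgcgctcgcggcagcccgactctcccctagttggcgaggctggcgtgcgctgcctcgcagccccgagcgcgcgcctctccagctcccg
Fads2, chr1:216171984-216172283, minus strand: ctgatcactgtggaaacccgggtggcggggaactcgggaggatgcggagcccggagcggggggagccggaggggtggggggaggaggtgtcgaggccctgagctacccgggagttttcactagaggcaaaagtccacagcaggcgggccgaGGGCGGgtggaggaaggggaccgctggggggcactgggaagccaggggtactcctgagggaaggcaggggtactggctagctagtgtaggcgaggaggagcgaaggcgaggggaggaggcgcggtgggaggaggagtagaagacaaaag
Thrsp, chr1:161138915-161139214, minus strand: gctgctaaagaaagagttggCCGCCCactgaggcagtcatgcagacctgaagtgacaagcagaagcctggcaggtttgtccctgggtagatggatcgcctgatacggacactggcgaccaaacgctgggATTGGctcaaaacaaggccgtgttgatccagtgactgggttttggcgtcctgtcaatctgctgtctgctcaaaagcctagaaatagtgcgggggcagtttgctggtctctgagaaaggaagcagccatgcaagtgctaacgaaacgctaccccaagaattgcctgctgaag

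The Scd1 promoter held none of the 5 motifs. Those of Fads1 and Thrsp each held a CCAAT box at -121 to -117 from the start, on opposite strands, and a GC box further upstream. The Fads2 promoter held a GC box at -99 to -94. Of the other genes, Acacb had 1 CCAAT box, Scd had 2, and Elovl5 had 2 together with an E-box. Of 33469 rat promoters of this length 37.5% held a CCAAT box, 33.1% a GC box, 14.2% a TATA box, 6.42% an E-box and 1.12% the sterol response element. The sterol response element was found in none of the 7 promoters, which says only that these letters are not in these windows. The share of G and C was 74.3% in the Fads1 promoter, 67.3% in that of Fads2, 58.3% in that of Scd1 and 53.7% in that of Thrsp.

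The carboxylase genes did not pass the threshold, and their ranges overlapped between the groups. Acaca (chr10:72478746-72677134, as the authors list it, on a build not given in the sources used here) ran from 13.73 RPKM through a median of 17.37 to 23.5 in the control livers. In the EtOH livers it ran from 15.95 through 18.15 to 28.72, the last in EtOH animal 5, whose level stood apart from the other 5. The control livers fell into 3 near 14 and 3 between 20.34 and 23.5 RPKM. Mean RPKM was 18.2 ± 4.78 in control and 19.6 ± 4.82 in EtOH livers (SD, n = 6 each), with a log2 fold change of 0.25 (SE 0.18, 95% interval -0.13 to 0.64) and an adjusted p of 0.556 by limma. Without EtOH animal 5 the log2 fold change was 0.14, and without normalization between livers 0.12. A second Acaca row, with a later start, had means of 2.13 ± 1.19 and 3.6 ± 1.97 RPKM and was not called (log2 fold change 0.67, SE 0.33, limma adjusted p = 0.363). The 2 transcripts overlap in the genome, and how the mapping divided reads between them could not be checked.

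Acacb (chr12:43388631-43491240) ran from 7.64 RPKM in control animal 4 through a median of 15.4 to 18.7 in the control livers. The EtOH livers lay between 13.5 and 19.2 RPKM with a median of 16.7, a narrower range that falls almost wholly within the control range. Means were 14.7 ± 4.08 and 16.8 ± 2.10 RPKM (SD, n = 6 each), with a log2 fold change of 0.38 (SE 0.18, 95% interval -0.02 to 0.78, limma adjusted p = 0.36). Without control animal 4 it was 0.21, and without normalization between livers 0.23. A second Acacb row had means of 6.17 and 5.62 RPKM, and the lowest of the 3 was listed at 0 in 5 control and 3 EtOH livers. Neither of these rows was called, with limma adjusted p values of 0.919 and 0.729. Within each liver the log2 ratio of Acaca to Acacb, from the normalized levels, averaged 0.32 ± 0.51 in control and 0.20 ± 0.36 in EtOH livers (SD, n = 6 each). The difference was -0.13 and did not pass the two-sided exact permutation test over animals (p = 0.632, adjusted p = 0.632 over 3 pairs of genes).

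Scd1 had the largest positive fold change of the 9 genes on the log2 scale. Its main row (chr1:249458699-249471514) ran from 320.9 RPKM through a median of 353.5 to 579.6 in the control livers, where control animal 1 stood apart at the top and the next highest liver was at 378.4. In the EtOH livers it was 302.1 in EtOH animal 4, the lowest of all 12 livers, and between 565.8 and 891.2 in the other 5, with a median of 696.6. Apart from control animal 1 and EtOH animal 4, then, every EtOH liver was above every control liver. Those animals were set aside only after the values were seen, and with all 12 livers the groups overlapped. Mean RPKM was 386 ± 97.3 in control livers and 650.3 ± 202 in EtOH livers (SD, n = 6 each), the latter 1.68 times the former. The log2 fold change was 0.76 (SE 0.24, 95% interval 0.24 to 1.28), with a p of 0.00769 and an adjusted p of 0.126 by limma over all transcripts. Without EtOH animal 4 the log2 fold change was 0.96 and the limma adjusted p was 0.0234, in a fit that called 1.37% of all transcripts, so 1 liver decided the call. Without each of the other livers in turn the limma adjusted p stayed between 0.0533 and 0.23.

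A second Scd1 row with the same listed start and end had means of 210.5 ± 92.2 and 332 ± 113 RPKM (log2 fold change 0.81, SE 0.32, limma adjusted p = 0.245). The main row took between 59.21% and 78.81% of the gene's summed RPKM in the control livers and between 62.35% and 73.99% in the EtOH livers. With the rows of each gene summed, Scd1 averaged 596.6 ± 179.8 RPKM in control and 982.5 ± 300.8 in EtOH livers, with a log2 fold change of 0.75 and a limma adjusted p of 0.0723. The row named Scd (chr1:249358449-249367539), whose protein is a close relative of Scd1, was far lower. It ran from 2.26 through a median of 10.3 to 18.5 RPKM in the control livers and from 1.80 through 5.67 to 8.46 in the EtOH livers. All 6 EtOH livers were below the control median, while the control livers fell into 3 between 14.0 and 18.5 RPKM and 3 between 2.26 and 6.67. Its means were 10.1 ± 7.0 and 5.16 ± 2.74 RPKM (SD, n = 6 each), with a log2 fold change of -0.64 (SE 0.54, 95% interval -1.81 to 0.52, limma adjusted p = 0.649). It was -0.40 without control animal 1, -0.97 without control animal 5 and -0.42 without EtOH animal 3. Between 10 and 60 reads per liver stood behind these values, and reads that the mapping could place on either desaturase cannot be told apart.

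Fads1 and Fads2 both had lower mean levels in the EtOH livers and did not pass the threshold. They are neighbours on chromosome 1, with Fads3 on the other side of Fads2. Fads1 (chr1:212670771-212685712) ran from 129.9 RPKM through a median of 153.2 to 204.8 in the control livers and from 112.2 through 117.6 to 133.6 in the EtOH livers. Of the EtOH livers 5 were below the lowest control liver, and EtOH animal 4 overlapped with control animal 4. Means were 157.9 ± 25.1 and 119.6 ± 8.05 RPKM (SD, n = 6 each), a difference of -24.29%. The log2 fold change was -0.23 (SE 0.07, 95% interval -0.39 to -0.07), with a p of 0.00881 and an adjusted p of 0.134 by limma. Without normalization between livers it was -0.39 with a limma adjusted p of 0.0353, a setting that called 3.56% of all transcripts. Over the other settings the adjusted p stayed between 0.0737 and 0.308.

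Fads2 (chr1:212512692-212542621) ran from 175.6 RPKM through 184.1 to 263.7 in the control livers and from 134.1 through 148.7 to 199.4 in the EtOH livers. EtOH animals 5 and 6 lay within the control range, and the other 4 below it. Means were 199 ± 34.0 and 159 ± 26.4 RPKM (SD, n = 6 each), with a log2 fold change of -0.18 (SE 0.09, 95% interval -0.38 to 0.02, limma adjusted p = 0.375). Control animal 3 had the highest level of both genes. The log2 ratio of Fads1 to Fads2 averaged -0.35 ± 0.12 in control and -0.40 ± 0.23 in EtOH livers (SD, n = 6 each), with a difference of -0.05 (two-sided exact permutation test, p = 0.628, adjusted p = 0.632 over 3 pairs).

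The elongases stood at different levels and had fold changes of opposite sign. Elovl5 (chr8:82922551-82948348) ran from 110.7 RPKM through a median of 148.9 to 163.1 in the control livers and from 129.8 through 155.7 to 167.1 in the EtOH livers. The ranges overlapped in nearly their whole extent, with control animals 3 and 5 lowest. Means were 142 ± 22.4 and 154 ± 13.9 RPKM (SD, n = 6 each). Without normalization between livers the log2 fold change was 0.13, and with each liver scaled by its median ratio it was 0.22. Neither of these settings had Elovl5 under the unadjusted 5% level by limma. With the quantile step the log2 fold change was 0.28 (SE 0.12, 95% interval 0.0048 to 0.55). By limma the p was 0.0466 and the adjusted p was 0.312. Some settings that kept a quantile step also had Elovl5 over the unadjusted 5% level. The limma p was 0.0612 with no trend, 0.0515 by voom and 0.053 with the animal number as a block. In the pooled test on square-root values p was 0.0674. Either other pseudocount, a minimum mean RPKM of 1 and square-root values with limma left it under that level.

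Elovl6 (chr2:226946551-227052754) had the largest fold change of the 9 genes in either direction, at low levels. It ran from 4.39 RPKM through a median of 14.3 to 19.9 in the control livers and from 1.99 through 5.02 to 10.8 in the EtOH livers. All 6 EtOH livers were below the control median, and 2 of them below the lowest control liver. Control animals 3 and 6, at 6.14 and 4.39 RPKM, were at the level of the EtOH livers, while the other 4 control livers lay between 13.95 and 19.91. Means were 12.3 ± 5.86 and 5.11 ± 3.20 RPKM (SD, n = 6 each), 2.40 times as high in control livers. The log2 fold change was -1.13 (SE 0.42, 95% interval -2.04 to -0.23), with a p of 0.0181 and an adjusted p of 0.198 by limma. Between 8 and 55 reads per liver stood behind these values.

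The log2 ratio of Elovl5 to Elovl6 averaged 3.6 ± 0.79 in control and 5.01 ± 0.81 in EtOH livers (SD, n = 6 each). All 6 EtOH livers were above the control median and 2 above the highest control liver. The difference of 1.41 had a p of 0.0195 in the two-sided exact permutation test and an adjusted p of 0.0584 over the 3 pairs, where 0.00216 is the smallest p possible. It fell under 0.05 without control animal 6 (difference 1.69, adjusted p = 0.0195, exact permutation test) and without EtOH animal 5 (1.67, adjusted p = 0.0325, exact permutation test). Without any of the other 10 livers it stayed between 0.0584 and 0.104.

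**Figure D2:**
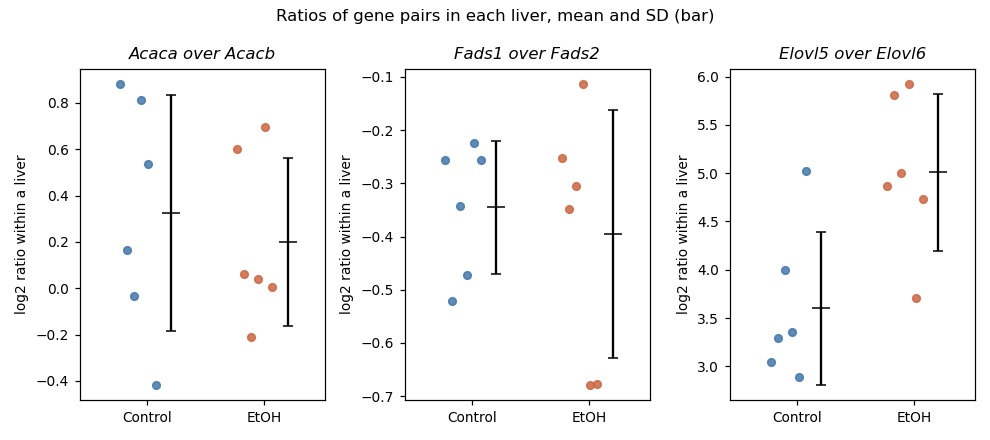
Log2 ratio of normalized levels within each liver for Acaca over Acacb, Fads1 over Fads2 and Elovl5 over Elovl6 in the 6 control and 6 EtOH livers (points), with group mean and SD. The group means of the first 2 ratios differ by less than 1 SD, and that of Elovl5 over Elovl6 is 3.6 in control and 5.01 in EtOH livers.

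By main rows, Thrsp had the highest mean RPKM of the 9 genes, while with rows summed Scd1 was higher in the EtOH livers. Its row (chr1:154647341-154651663) ran from 780.5 RPKM in control animal 6 through a median of 1034 to 1113 in the control livers. In the EtOH livers it ran from 435.4 in EtOH animal 3 through 707.9 to 1009 in EtOH animal 5. The other 5 EtOH livers were all below the lowest control liver, and EtOH animal 5 was within the control range. Means were 1000 ± 122 and 705 ± 191 RPKM (SD, n = 6 each), a difference of -29.51%. The log2 fold change was -0.51 (SE 0.16, 95% interval -0.86 to -0.16), with a p of 0.0077 and an adjusted p of 0.126 by limma. Without EtOH animal 5 it was -0.63 with a limma adjusted p of 0.0447, in a fit that called 1.38% of all transcripts, and without each of the other livers in turn the adjusted p stayed between 0.108 and 0.228. With the rows of every gene summed before the fit, which called 6.4% of genes, the limma adjusted p was 0.0567. Thrsp has 1 row, so the summing left its own RPKM unchanged. Only the features around it in the quantile step, the fit and the adjustment differed.

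The same EtOH animal, number 5, had the highest level in its group of Acaca, Scd1, Elovl6 and Thrsp. It was also highest in its group for Srebf1, Acly and Insig1, at 57.77, 146.5 and 339.0 RPKM. These genes were picked after the values were seen. Of the other pathway genes called lower, described below, it was highest for Acss2, at 36.67 RPKM. It was not for Me1, Slc25a1, Mid1ip1 and Acsl1, at 12.56, 67.23, 10.54 and 589.8 RPKM. The highest EtOH livers there had 14.67, 70.9, 17.06 and 677.2 RPKM. Across livers, after the mean of each group was subtracted from the normalized log2 values, Acaca went with Elovl6 (Pearson's r = 0.758, permutation p = 0.00737, Spearman's rho = 0.755, permutation p = 0.00458) and with Thrsp (r = 0.679, permutation p = 0.00699, rho = 0.725, permutation p = 0.00199). Over all 36 pairs of the 9 genes, 3 had a p under 0.05 for r and none after adjustment, where these 2 pairs stood at 0.133 for r and 0.0635 for rho. By rho, Elovl6 with Thrsp stood at the same adjusted p (rho = 0.732, permutation p = 0.00529, r = 0.557, permutation p = 0.0726), and Acacb with Scd was at an unadjusted p under 0.05 (rho = -0.72, permutation p = 0.0297, adjusted p = 0.268, r = -0.528, permutation p = 0.127). The remaining pair by r was Fads1 with Elovl6 (r = -0.609, permutation p = 0.0438, adjusted p = 0.525, rho = -0.545, permutation p = 0.0842). Without the 2 livers farthest from the median of Acaca, r with Elovl6 was 0.543 and r with Thrsp 0.443. Within the control livers alone r was 0.733 with Elovl6 and 0.643 with Thrsp, and within the EtOH livers 0.795 and 0.836. Of the 36 pairs 22 had an r above 0, and the median r was 0.142. The r of Scd1 with Acaca was 0.5 (permutation p = 0.111, rho = 0.364, permutation p = 0.263) and 0.055 without the 2 livers farthest from the median of Acaca.

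**Figure D3:**
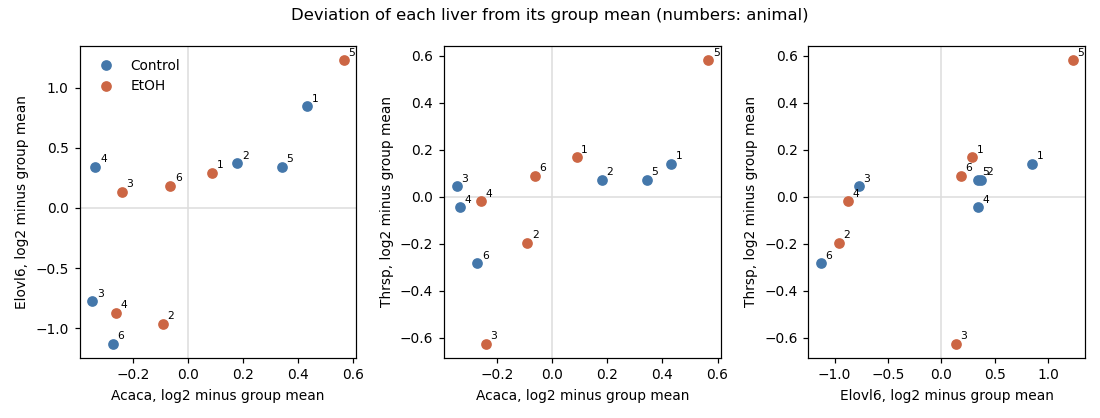
Deviation of each liver from the mean of its group in normalized log2 RPKM, for Elovl6 against Acaca, Thrsp against Acaca and Thrsp against Elovl6 (numbers are animals). EtOH animal 5 lies at the upper right in all panels, and r with Acaca over all 12 livers is 0.758 for Elovl6 and 0.679 for Thrsp.

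Of 11072 other transcripts averaging 1 RPKM or more, those whose deviations from the group means were most like those of Acaca over the 12 livers were Tgfbr3, a coreceptor of transforming growth factor beta (r = 0.902), Snrpd1, a core protein of the spliceosome (r = 0.87), a transcript listed only under a protein entry name (r = 0.867), M6pr, a receptor that carries lysosomal enzymes (r = 0.856), and Tcfap4, a transcription factor (r = 0.852). They are the highest of many values and are given as a description. None of the 5 was called between the groups.

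Among the other genes of the pathway, 3 of 4 that supply acetyl-CoA, citrate and NADPH were lower in the EtOH livers. From 8 lists of 61 such genes, 52 were tested. Of these 6 were lower and 3 higher at an adjusted p below 0.05, against 1.29% and 1.13% of all transcripts. Of the 11086 transcripts averaging 1 RPKM or more, 260 were lower and 235 higher. The lists were chosen with earlier results of these data known, so the counts are a description and not a test. The other genes of the lists matched no row by name or were listed at 0 in every liver. Over the 52 genes the median log2 fold change was -0.07. Me1, the malic enzyme that makes NADPH for fatty acid synthesis, ran from 21.2 through 29.9 to 49.6 RPKM in the control livers and from 7.04 through 10.9 to 14.7 in the EtOH livers. No EtOH liver reached the lowest control liver, and the mean fell from 32.7 ± 9.92 to 10.8 ± 2.84 RPKM (SD, n = 6 each), with a log2 fold change of -1.40 (SE 0.19, limma adjusted p = 0.00393). Slc25a1, the carrier that exports citrate from mitochondria, ran from 86.9 through 95.9 to 126.8 RPKM in the control livers and from 61.8 through 63.8 to 70.9 in the EtOH livers, again without overlap. Its log2 fold change was -0.45 (SE 0.06, limma adjusted p = 0.00237). Acss2, which makes acetyl-CoA from acetate, which ethanol oxidation yields, ran from 35.9 through 54.7 to 74.3 RPKM in control and from 21.7 through 25.8 to 36.7 in EtOH livers. Only the highest EtOH liver reached the control range, and the log2 fold change was -0.82 (SE 0.14, limma adjusted p = 0.0151). The calls of Me1, Slc25a1 and Acss2 held under every alternative fitted to the transcripts and without each liver in turn. For Acss2 this is the main row of 4, and the fit of its summed rows is not given here. Acly, which splits the exported citrate to acetyl-CoA, had means of 129.8 and 87.1 RPKM in its main row of 3. It was not called (log2 fold change -0.47, limma adjusted p = 0.462). Control animal 1, at 217.0 RPKM, was its highest liver, and EtOH animals 1 and 5, at 125.6 and 146.5, lay within the control range.

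Mid1ip1, a relative of Thrsp whose protein promotes the assembly of acetyl-CoA carboxylase into active filaments, ran from 25.7 through 28.8 to 36.9 RPKM in the control livers and from 6.53 through 13.0 to 17.1 in the EtOH livers. The groups did not overlap, and the mean fell from 30.3 ± 4.47 to 12.9 ± 4.27 RPKM (SD, n = 6 each, log2 fold change -1.12, SE 0.21, limma adjusted p = 0.0202). It was the single call among 10 genes of malonyl-CoA turnover and carboxylase control, and was lost with the animal number as a block (limma adjusted p = 0.0779). The others named by level were Cpt1a, which admits fatty acids to mitochondria and is inhibited by malonyl-CoA, with means of 23.5 and 43.5 RPKM (log2 fold change 0.96, limma adjusted p = 0.0887), Mlycd, which breaks malonyl-CoA down, with 32.9 and 28.2 RPKM (limma adjusted p = 0.858), and Prkab1, a subunit of the kinase that inactivates the carboxylases, with 22.5 and 25.1 RPKM (limma adjusted p = 0.35).

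Of 14 tested transcription factors of lipogenesis and their partners, 1 was lower and 2 were higher. Srebf1 had 3 rows, and the values given are those of its main row, without a fit of the summed rows. That row ran from 61.5 through 77.6 to 93.7 RPKM in control livers. In EtOH livers it ran from 13.6 through 28.6 to 57.8, without overlap. Its mean fell from 76.2 ± 12.1 to 31.3 ± 14.5 RPKM (SD, n = 6 each, log2 fold change -1.22, SE 0.26, limma adjusted p = 0.0301). Leaving out control animal 1, 2, 3 or 4 or EtOH animal 1, 2, 4 or 6 ended the call (limma adjusted p of up to 0.0694). So did the block and the pooled test on square-root values, modelled on the study's methods (adjusted p of up to 0.0939). The study itself reported Srebf1 as lower, in its RNA-Seq test at a 5% false discovery rate and in qRT-PCR. Why the pooled test run here differs from that report was not tested. Insig2, which holds the protein of Srebf1 in the endoplasmic reticulum, had means of 64.0 and 72.0 RPKM, with ranges that overlapped widely (log2 fold change 0.32, limma adjusted p = 0.0457). Nfya encodes a subunit of the factor that binds the CCAAT box. Its main row of 2 was listed at 0 in 4 control livers and was between 0.906 and 3.14 RPKM in the EtOH livers. The values rested on 15 control and 95 EtOH reads (log2 fold change 1.77, limma adjusted p = 0.0496). How the mapping divided reads between the 2 Nfya rows could not be checked. The Insig2 call was lost without any 1 of 9 livers (all but control animals 5 and 6 and EtOH animal 1) and that of Nfya without any 1 of 10 (all but control animals 2 and 6), with limma adjusted p values of up to 0.0947 and 0.101. Other settings also ended these calls, 6 of them for Insig2 and 4 for Nfya, among them the pooled test and the block, with adjusted p values of up to 0.335 and 0.0941. Insig1, Nr1h3 and Usf2, the most abundant of the factors not called, had limma adjusted p values of 0.529, 0.45 and 0.745.

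Of 2 other elongases tested, Elovl2, which lengthens polyunsaturated fatty acids beyond the reach of Elovl5, was higher, with 13.3 through 16.1 to 24.0 RPKM in control and 23.3 through 25.9 to 32.8 in EtOH livers. Control animals 1 and 6, near 24 RPKM, overlapped with the EtOH livers, and the log2 fold change was 0.73 (SE 0.16, limma adjusted p = 0.0377). The call was lost without any 1 of 10 livers, all but control animals 1 and 6 (limma adjusted p of up to 0.0795), and without normalization between livers, with no trend, with the pooled test and with the block (up to 0.13). Elovl1 had means of 20.9 and 16.4 RPKM and was not called (limma adjusted p = 0.467). None of the 5 tested genes of the other steps of elongation was called. The most abundant, Tecr, Hsd17b12 and Hacd2, had limma adjusted p values of 0.748, 0.918 and 0.649.

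Of 7 tested genes of other desaturases and their electron donors none was called. The cytochromes b5 of Cyb5a and Cyb5b, which pass electrons to the desaturases, were without overlap between the groups in RPKM as deposited, as were 2.43% of all transcripts in that direction. Cyb5a ran from 918.7 through 981.3 to 1067 RPKM in control and from 825.9 through 850.3 to 862.5 in EtOH livers (log2 fold change -0.16, limma adjusted p = 0.124). Cyb5b ran from 80.1 through 90.2 to 101.9 RPKM in control and from 56.5 through 65.8 to 76.0 in EtOH livers (log2 fold change -0.30, limma adjusted p = 0.104). Cyb5r3, the reductase that feeds them, had means of 175.3 and 143.1 RPKM (limma adjusted p = 0.274). Fads3, the neighbour of Fads2, was chosen after its values were seen, and its highest EtOH liver, at 2.64 RPKM, was below its lowest control liver, at 2.78 (log2 fold change -0.59, limma adjusted p = 0.0887).

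Of the acyl-CoA synthetases, Acsl1, the main one of liver, ran from 703.8 through 727.0 to 811.2 RPKM in control and from 559.4 through 613.7 to 677.2 in EtOH livers, without overlap. Its log2 fold change was -0.25 (SE 0.05, limma adjusted p = 0.0229), and the call was lost without control animal 2, EtOH animal 3 or EtOH animal 5 (limma adjusted p of up to 0.0535), and with median scaling, no trend or the block (up to 0.16). Acsl3 and Acsl4 had limma adjusted p values of 0.0974 and 0.403. None of the 7 genes of fatty acid synthesis in mitochondria was called. Mecr, the reductase of its last step, came nearest, with 16.7 to 25.0 RPKM in control and 12.2 to 16.5 in EtOH livers (log2 fold change -0.37, limma adjusted p = 0.0645), and Hsd17b8 and Ndufab1 had limma adjusted p values of 0.649 and 0.238.

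**Figure D4:**
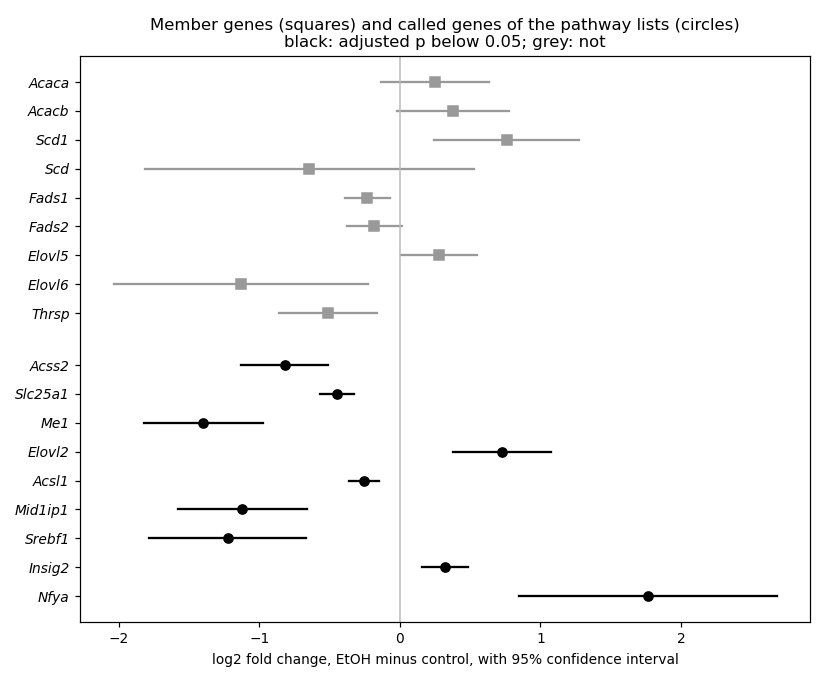
Log2 fold change (EtOH minus control, quantile-normalized log2 of RPKM plus 0.5) with 95% confidence interval for the 9 genes (squares) and the 9 called genes of the pathway lists (circles), black where the adjusted p is below 0.05. All squares are grey, from -1.13 for Elovl6 to 0.76 for Scd1, and the circles run from -1.40 for Me1 to 1.77 for Nfya.

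A few markers of other liver cells were called, and of all transcripts 1.13% were called higher. Log2 fold changes were above 0 for all 4 tested Kupffer cell, all 6 stellate cell and all 3 endothelial markers. Their medians were 0.57, 0.389 and 0.367, against 0.0078 for all transcripts averaging 1 RPKM or more. The medians of hepatocyte and cholangiocyte markers were -0.0117 and 0.0253. Of 4 matched Kupffer cell markers 2 (Clec4f and Cd163) were called higher, and the summed RPKM of the list ran from 67.1 to 108.2 in control and from 95.5 to 126.3 in EtOH livers. Of 6 stellate cell markers 1 (Col3a1) was called higher, with sums of 23.5 to 31.8 and 29.1 to 48.5, and of 3 matched endothelial markers 1 (Cdh5) was, with sums of 24.5 to 31.3 and 27.8 to 38.6. The sums overlapped between the groups in every list. The calls were lost without any 1 of 5 livers for Clec4f, 10 for Cd163, 9 for Col3a1 and 11 for Cdh5, and all 4 also without normalization between livers, with limma adjusted p values of up to 0.148 over the settings. No marker of cholangiocytes (4 matched, sums of 4.37 to 8.27 and 3.90 to 7.87) or of hepatocytes (5 matched) was called, though quantile normalization fixes the most abundant transcripts at nearly equal values. Of adipocyte markers, a cell type rich in the products of these genes, Adipoq and Lep were listed at 0 in all 12 livers. Retn was above 0 in 1 control liver only, at 0.427 RPKM. The sums of the 4 matched markers, 29.1 to 45.0 in control and 26.2 to 33.0 in EtOH livers, were therefore almost wholly Cidec. They do not show the level of adipocyte markers as a set. The part of these cells in the results was not tested.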

How the data were processed

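Livers of 6 EtOH and 6 control rats were sequenced in 101-nucleotide paired-end reads. RPKM values of every liver, reads scaled to transcript length and mapped reads, were made by the authors in CLCbio Genomics Workbench 4.9 and deposited. The sources used here do not give the genome build. The sorted values differed between livers, so the deposited RPKM had not been quantile normalized. The table also holds the authors' fold changes, test statistics and p values, which were not used.

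Log2 of RPKM plus a pseudocount of 0.5 was quantile normalized and compared with limma 3.58.1 in R 4.3.3, with a mean-variance trend, for all 21718 transcripts with a value above 0 in any liver. P values were adjusted over all of them (Benjamini-Hochberg) and called below 0.05. The 12673 transcripts listed at 0 in every liver were left out. Other steps used Python 3.11.15, numpy 2.4.6, pandas 2.3.3, scipy 1.17.1 and matplotlib 3.10.9. Whole reads were recovered from the ratios of RPKM values (tolerance 0.01 of a read) for 21718 of 21718 transcripts. They are the smallest whole numbers that give these ratios, and 1 read where only 1 liver is above 0. Recovery was thus largely fixed in advance, and the reads and depths are lower bounds. The recovered reads were used in limma voom as an alternative. Reads are not independent molecules, so read numbers show counting error only.

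Gene pairs were compared by a two-sided exact permutation test on log2 ratios within livers over 924 regroupings. Replicates are animals, and the labels give no batch. Correlations used 100000 permutations within groups. The members and lists were chosen with earlier results of these data known. Named are every member row, each called gene of the pathway lists and up to 3 more per list by mean RPKM, the 5 transcripts most like a member, and markers as lists. The comparisons planned with Fasn, 2 of 5 pairs and the most similar transcripts, could not be run since it matched no row, and Acaca was taken for the latter after the table was seen. Alternatives were a pseudocount of 0.1 or 1, and scaling by the median ratio or not at all in place of the quantile step. The median ratio was that to the geometric mean over livers, from transcripts above 0 in every liver. Others were square-root values with limma or with an unmoderated pooled error term as in the study's methods, a minimum mean RPKM of 1 and no trend. Further ones were voom, a block for the animal number, leaving out each liver in turn, and, chosen after seeing the data, summed rows per gene.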

Additional observations from a re-analysis of the deposited data

Results flagged for a closer look

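In 5 of 52 groups of 6 livers tested, the highest liver stood apart from the other 5 by Dixon's criterion (its gap to the nearest liver, as a share of the group's range, was past the 95% critical value), and chance gives about 1 in 20. EtOH animal 5 had 28.72 RPKM of the main Acaca row, where the nearest liver had 20.61, and 7.437 RPKM of the second row, where the nearest had 3.562. Control animal 1 had 3.207 RPKM of the third Acacb row, listed at 0 in the other control livers. Control animal 1 also had 579.6 RPKM of the main Scd1 row, with the nearest control liver at 378.4. Control animal 3 had 126.8 RPKM of Slc25a1, with the nearest at 99.09.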

How the results depend on the processing

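None of the 9 genes was called in 20 of 23 alternatives, and 1 was called in each of the other 3, which were no normalization between livers (Fads1), leaving out EtOH animal 4 (Scd1) and leaving out EtOH animal 5 (Thrsp). No log2 fold change of the 9 genes changed sign in any alternative. Transcripts called lower and higher numbered 281 and 245, and moved to 648 and 126 without normalization between livers, 182 and 140 with the square-root pooled test, 440 and 420 when transcripts averaging under 1 RPKM were left out, and 495 and 482 with summed rows per gene (15270 genes). With each liver left out in turn they ran from 131 to 330 lower and from 81 to 326 higher, both lowest without EtOH animal 2, and members called ran from 0 to 1. The difference between the log2 fold changes of Elovl5 and Elovl6 ran from 1.23 to 1.69 when each liver was left out. That of Fads1 and Fads2 ran from -0.11 to 0.0083 and turned sign without EtOH animal 5 (0.0083) and EtOH animal 6 (0.0044), at p values of 0.942 and 0.957 in the exact permutation test. With the animal number as a replicate block 73 transcripts were lower and 40 higher, and no member was called. Samples of the same number did not deviate together (r from -0.067 to 0.032), so the number is not taken as a pairing, and no paired fit was made of the gene pairs. The comparisons with Fasn were not run. The cause of these changes was not tested. Depth limits Scd and Elovl6 most, with as few as 10 and 8 reads in a liver.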
